A study of Mus musculus with 6 samples.

Results

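The 10 genes described here belong to the Nrf2 pathway and to glutathione synthesis in the mouse colon epithelium: the regulators Nfe2l2 and Keap1, the glutathione synthesis genes Gclc and Gclm, the recycling enzymes Gsr, Txnrd1 and Srxn1, and the protective enzymes Gpx2, Nqo1 and Hmox1. They were chosen by gene symbol from a count table of 55487 genes. All 10 were found, each was among the 14650 genes with enough counts to be tested, and Nsd2, which encodes a histone H3K36 methyltransferase, was read as the check of the genotype.

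RNA-seq was performed on intestinal epithelial cells (IECs) of the colon from 3 Nsd2 f/f libraries, labelled WT in their titles, and 3 Nsd2 Vil-KO libraries. Nsd2 f/f mice carry floxed Nsd2 alleles without Cre, and Nsd2 Vil-KO mice carry the same alleles with Villin-Cre, whose promoter drives Cre in the intestinal epithelium, so that other cells of the colon wall keep Nsd2. Both groups received dextran sodium sulphate (DSS), a sulphated polysaccharide that injures the colonic epithelium and causes colitis, so there was no untreated group. By the study's methods, mice were littermates on a C57BL/6J background, colitis was started at 2 months of age with 2% DSS for 5 days, and IECs were shaken from colon pieces with EDTA without sorting. The sources used here do not give the age or day at which these libraries were collected, nor whether each library came from a separate animal, so p-values measure the spread between these libraries.

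Nrf2, encoded by Nfe2l2, is a transcription factor that is held in the cytoplasm and sent for degradation by the adaptor Keap1. Oxidants and electrophiles modify Keap1, and Nrf2 then accumulates and binds antioxidant response elements (AREs) of its target genes. Because this switch acts on the protein, mRNA of Nfe2l2 and Keap1 is not a direct readout of Nrf2 activity, which is usually read from targets such as Nqo1, Gclm and Srxn1. In the gut, the pathway supplies glutathione and peroxide-removing enzymes to cells that face bacteria and infiltrating leukocytes.

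With edgeR on all 6 libraries, none of the 10 genes passed the test between genotypes. A gene was called when its fold change exceeded 1.2 and its unadjusted p was under 0.05 in edgeR's quasi-likelihood test, a criterion that 434 of 14650 genes (2.96%) passed, 221 (1.51%) in the higher and 213 (1.45%) in the lower direction in Nsd2 Vil-KO libraries. After Benjamini-Hochberg adjustment no gene of the 14650 passed (smallest adjusted p = 0.999 with edgeR), and no gene of the 10 was below 0.999. DESeq2 called 633 of 14650 genes (4.32%) at the same limits. With it 4 genes, none of them among the 10, had an adjusted p under 0.05 (smallest 0.0102). Limma-voom, always run here with a quality weight for each library, called 1421 (9.70%), none after adjustment. At these limits without adjustment, DESeq2 called Gclc and Txnrd1 and limma-voom called Txnrd1. None of the 10 passed with the libraries scaled by size only (2.31% of genes called), with no filter on low counts (2.59%) or with the replicate number as a block (1.82%), nor without Nsd2 f/f replicate 1 (2.77%), 2 (1.76%) or 3 (2.89%) or Nsd2 Vil-KO replicate 2 (4.75%). The fitted log2 fold change was above 0 for 9 of the 10 genes, against 50.2% of all genes, and its median was 0.44, against 0.00 over all genes. The differences were unevenly spread over libraries: 6 of the 10 genes had their highest level in Nsd2 Vil-KO replicate 2, as did 28.7% of all genes. In such bulk RNA, fewer cells of a type and less RNA per cell cannot be told apart.

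Total counts ran from 15439123 to 20350539 per library, and 3 counts, taken as the floor, were worth 0.146 to 0.242 on the counts-per-million (CPM) scale. Replicate 2 of Nsd2 Vil-KO and replicate 3 of Nsd2 f/f stood apart from the rest. Their mean Spearman correlation with the 4 remaining libraries was 0.927 and 0.940, and it was between 0.979 and 0.983 for those 4. The pair also held 3684 and 4296 counts of Xist, the RNA of the inactive X chromosome, where the 4 others held between 1 and 5. Mitochondrial genes took 19.6% of counts in Nsd2 f/f replicate 3 and 5.51% to 9.13% in the others. Nsd2 was at 47.9, 51.2 and 24.6 CPM in the Nsd2 f/f libraries, always given in the order of replicates 1, 2 and 3, and at 24.2, 10.4 and 20.8 CPM in those labelled Nsd2 Vil-KO. The genotypes did not overlap and Nsd2 fell by 1.16 on the log2 scale (standard error 0.40), without passing the call when Nsd2 f/f replicate 1 or 2 was left out, although Nsd2 f/f replicate 3 was close to Nsd2 Vil-KO replicate 1. Epithelial markers such as Epcam and Krt8 were abundant in every library.

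AREs are built around the letters TGACNNNGC, and stretches of promoters that hold them are shown here for that reason. RefSeq promoter windows ran from 250 bases before to 50 bases after the start of transcription on GRCm38.p6. They were at hand for 7 of the 10 genes, all but Gclc, Hmox1 and Gsr. On either strand, 4 of these 7 genes, and 4 of their 9 promoters, held TGACNNNGC. In the same table, 14% of the 27025 genes and 12.4% of the 32851 promoters held it. The windows of Nqo1, Gpx2 and Keap1 held no match. In the lines that follow, written on the strand of the gene, capitals mark the match. It lies 240 bases before the start of transcription in Nfe2l2 (chr2:75704880-75704913) and 134 bases before it in Gclm (chr3:122245408-122245446). In Txnrd1 (chr10:82859099-82859137) it lies 92 bases before a start inside the gene, whose span begins at chr10:82833951. Txnrd1 had 3 windows, and this match is in the window chr10:82858956-82859255.
Nfe2l2: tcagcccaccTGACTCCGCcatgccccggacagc
Gclm: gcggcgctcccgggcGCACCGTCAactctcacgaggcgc
Txnrd1: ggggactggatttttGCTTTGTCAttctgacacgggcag

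The Srxn1 promoter held TGACNNNGC past its start, and also, before it, the separate motif TGAGTCAGC, searched as a further form of the element and found in 0.414% of all promoters. The TGAGTCAGC match starts 45 bases before the start of transcription (chr2:152105464-152105502), is in capitals here, and overlaps the AP-1 letters TGACTCA on the opposite strand, which 5.20% of promoters held.
Srxn1: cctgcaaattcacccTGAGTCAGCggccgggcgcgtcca

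Both Gpx2 and Txnrd1 encode selenoproteins, in which an in-frame TGA is read as selenocysteine, a residue at the active site of each enzyme. They were the only 2 of the 10 genes with such a codon in the GENCODE annotation. The coding sequence around it is shown because these genes were first and second in mean level per length, with the TGA in capitals. In Gpx2 it is codon 40 of 190 (chr12:76795256-76795258, minus strand), and in the longest protein-coding Txnrd1 transcript it is codon 612 of 613 (chr10:82896037-82896039, plus strand), 1 codon before the stop.
Gpx2: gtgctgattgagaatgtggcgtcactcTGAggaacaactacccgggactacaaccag
Txnrd1: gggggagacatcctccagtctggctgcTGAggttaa

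Levels were compared between genes per length, as CPM per kilobase of the longest protein-coding transcript. Gpx2, the gastrointestinal glutathione peroxidase, came first with a mean of 854 over the 6 libraries and a range from 513 to 1634. It was the only gene whose range did not overlap that of the next gene in order. Txnrd1 (mean 90.0), Gsr (77.5), Nfe2l2 (66.0) and Srxn1 (60.9) followed with overlapping ranges. Gclc (28.3), Nqo1 (21.7), Keap1 (16.7), Gclm (15.4) and Hmox1 (10.3) formed the lower end, and no neighbours among them were separated beyond their ranges. The range over libraries also differed by gene, on the CPM scale, from 7.23 times between the lowest and highest library for Nqo1, through 4.80 times for Hmox1 and 4.74 times for Gclc, to 1.61 times for Keap1 and Txnrd1.

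**Figure D1:**
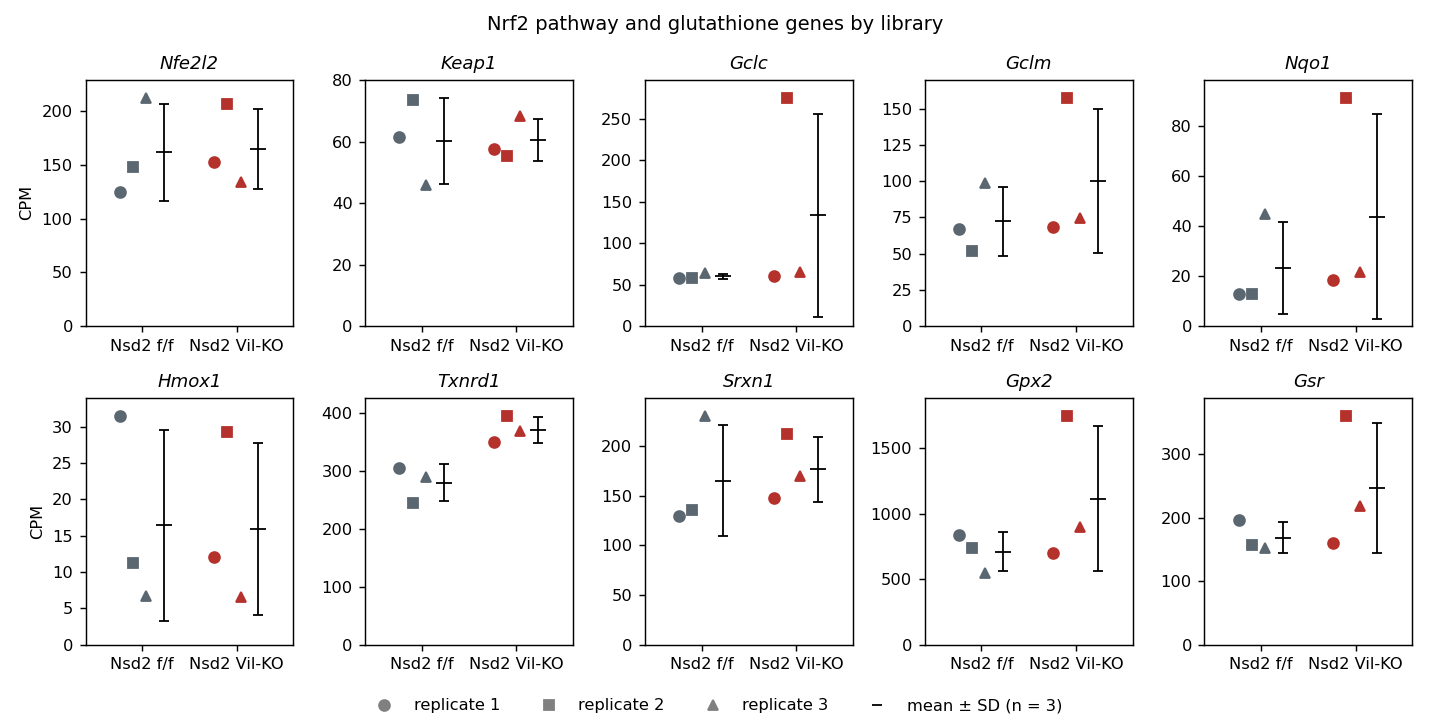
Each panel plots the level of 1 gene in counts-per-million (CPM, linear axis) in the 3 Nsd2 f/f (grey) and 3 Nsd2 Vil-KO (red) libraries, with symbols for replicates and a bar for the mean ± SD. The genotypes are separated for Txnrd1, at 245 to 306 against 350.3 to 395 CPM, while Gclc reaches 275 CPM in Nsd2 Vil-KO replicate 2 and lies between 58.1 and 65.7 CPM in the other libraries.

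The mean levels of the regulators were close between genotypes. Nfe2l2 (ENSMUSG00000015839, chr2:75675513-75704641) was at 125, 148 and 213 CPM in Nsd2 f/f and at 153, 207 and 135 CPM in Nsd2 Vil-KO libraries. Its 2 highest libraries were those that stood apart, 1 of each genotype, and the groups overlapped. The means were 162 ± 45.5 and 165 ± 37.7 CPM (SD, n = 3 each), and the log2 fold change was 0.03 with a 95% interval from −0.62 to 0.67. Keap1 (ENSMUSG00000003308, chr9:21229730-21239361), the repressor, was at 61.4, 73.7 and 45.9 CPM in Nsd2 f/f and at 57.7, 55.5 and 68.4 CPM in Nsd2 Vil-KO libraries. Here Nsd2 f/f replicate 3 was the lowest library and the groups again overlapped, with a log2 fold change of 0.00 and an interval from −0.50 to 0.51. Keap1 shares 510 bases of exon with the antisense gene Gm16754, and whether counting used strand is not given in the sources used here. Per length, the ratio of Nfe2l2 to Keap1 was 2.97, 2.94 and 6.76 in Nsd2 f/f and 3.87, 5.45 and 2.88 in Nsd2 Vil-KO libraries. It was highest in both libraries with Xist, and the genotypes overlapped.

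Glutathione synthesis showed the largest fitted difference of the 10 genes, and 1 library carried it. Gclc (ENSMUSG00000032350, chr9:77754535-77794485) encodes the catalytic subunit of glutamate-cysteine ligase, the rate-limiting enzyme of glutathione synthesis. It was at 58.2, 58.1 and 63.7 CPM in Nsd2 f/f and at 60.6, 275 and 65.7 CPM in Nsd2 Vil-KO libraries. Nsd2 Vil-KO replicate 2 was 4.19 times the next highest library, and the other 5 lay within 1.13 times of each other. The means were 60.0 ± 3.18 and 134 ± 122 CPM (SD, n = 3 each). The log2 fold change was 1.16 with a 95% interval from −0.23 to 2.54, which did not pass the call (exact permutation test, two-sided, p = 0.2, where 3 against 3 libraries cannot go below 0.1). It passed with DESeq2 (unadjusted p = 0.0495, 4.32% of genes called). Without Nsd2 Vil-KO replicate 2 the log2 fold change was 0.08, and without Nsd2 Vil-KO replicate 3 it passed the call at 1.49 (2.84% of genes called). The 10 genes were chosen with earlier results of these data known, so the direction of Gclc is not taken as independent evidence.

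Gclm (ENSMUSG00000028124, chr3:122245557-122270732), the modifier subunit that makes the ligase more active, was at 67.2, 51.6 and 98.3 CPM in Nsd2 f/f and at 68.1, 157 and 74.3 CPM in Nsd2 Vil-KO libraries. The library labelled Nsd2 Vil-KO replicate 2 was again highest, followed by Nsd2 f/f replicate 3, and the groups overlapped. The log2 fold change was 0.47 (interval −0.46 to 1.39), and −0.02 without Nsd2 Vil-KO replicate 2. Gclm shares 244 bases of exon with the pseudogene Gm6061 on the same strand and 296 with Gm17494 on the other. The subunits did not move by the same factor: per length, Gclc over Gclm was 1.41, 1.84 and 1.06 in Nsd2 f/f and 1.45, 2.86 and 1.44 in Nsd2 Vil-KO libraries, highest in Nsd2 Vil-KO replicate 2 and lowest in Nsd2 f/f replicate 3.

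**Figure D2:**
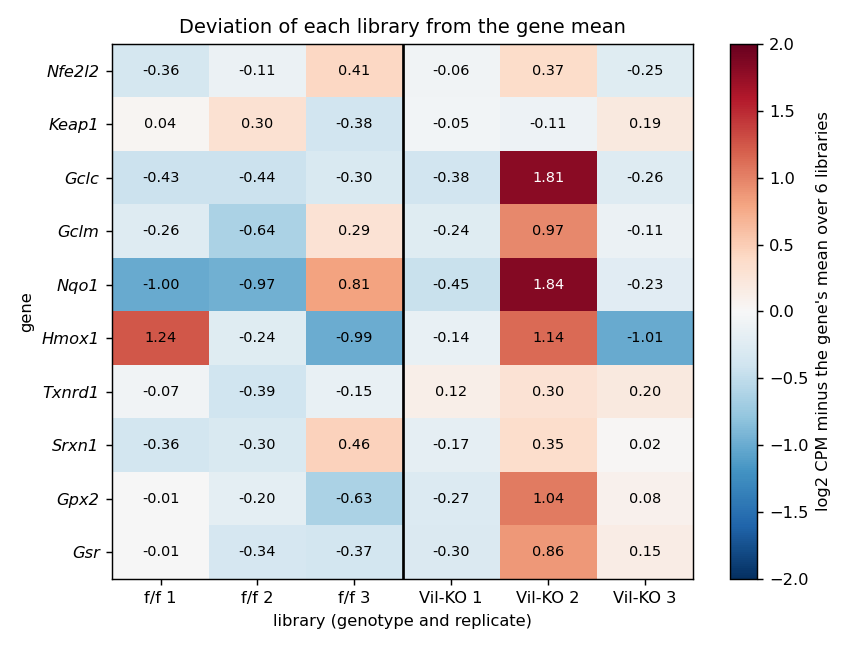
Each cell gives log2 CPM of 1 gene in 1 library minus that gene's mean over the 6 libraries, red above and blue below the mean, with the genotypes divided by the vertical line. The column of Nsd2 Vil-KO replicate 2 holds the highest values of Gclc (1.81), Nqo1 (1.84), Gpx2 (1.04), Gclm (0.97), Gsr (0.86) and Txnrd1 (0.30), while Nfe2l2 and Srxn1 are highest in Nsd2 f/f replicate 3 and Hmox1 in Nsd2 f/f replicate 1.

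Among the recycling enzymes, Txnrd1 was the single gene of the 10 whose genotypes did not overlap. Txnrd1 (ENSMUSG00000020250, chr10:82833951-82897712) encodes cytosolic thioredoxin reductase, which returns thioredoxin to its reduced form with NADPH. It was at 306, 245 and 290.3 CPM in Nsd2 f/f and at 350.3, 395 and 369 CPM in Nsd2 Vil-KO libraries. Every Nsd2 Vil-KO library was above every Nsd2 f/f library, as for 5.21% of all genes (in the opposite direction 4.70% of all genes and none of the 10), and the libraries that stood apart were not extreme in Nsd2 f/f. The means were 280.3 ± 31.8 and 371 ± 22.3 CPM (SD, n = 3 each). The log2 fold change of 0.41 (standard error 0.20, interval −0.06 to 0.87) missed the call with edgeR (unadjusted p = 0.0766), and the exact permutation test gave the smallest p that 3 against 3 allows, 0.1. Its log2 fold change stayed between 0.32 and 0.47 in 16 alternative settings and passed the call in 4 of them. These were DESeq2 (unadjusted p = 0.0309), limma-voom with quality weights (unadjusted p = 0.0138), the 4 libraries left after both that stood apart were taken out (unadjusted p = 0.0213), and the fit with Xist presence as a covariate (unadjusted p = 0.0280), all from models fitted across all genes, in which 4.32%, 9.70%, 10.9% and 7.39% of all genes passed.

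Gsr (ENSMUSG00000031584, chr8:33652523-33698163), glutathione reductase, regenerates glutathione from its oxidised form. It was at 196, 156 and 152 CPM in Nsd2 f/f and at 161, 359 and 218 CPM in Nsd2 Vil-KO libraries. Nsd2 Vil-KO replicates 2 and 3 were the highest libraries, and replicate 1 lay among the Nsd2 f/f values. The log2 fold change was 0.55 (interval −0.21 to 1.30), and it passed the call only without Nsd2 Vil-KO replicate 1 (0.78, with 3.08% of genes called), a setting in which Gclc passed too (1.51). Srxn1 (ENSMUSG00000032802, chr2:152105516-152111376), sulfiredoxin, repairs overoxidised peroxiredoxins and is a sensitive Nrf2 target. It was at 130.1, 136 and 230.1 CPM in Nsd2 f/f and at 148, 213 and 169.8 CPM in Nsd2 Vil-KO libraries, highest in Nsd2 f/f replicate 3, with overlapping groups and a log2 fold change of 0.10 (interval −0.57 to 0.77).

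Among the enzymes that act on peroxides, quinones and haem, Nqo1 and Hmox1 had the widest range over libraries of the 10 genes. Gpx2 (ENSMUSG00000042808, chr12:76792333-76795554), which reduces hydrogen peroxide with glutathione in gut epithelium, was at 840.2, 737 and 547 CPM in Nsd2 f/f and at 701, 1744 and 899 CPM in Nsd2 Vil-KO libraries. Nsd2 Vil-KO replicate 2 was 1.94 times the next library, and the remaining values of the genotypes overlapped. The log2 fold change was 0.65 (interval −0.27 to 1.58), and 0.18 without that library.

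Nqo1 (ENSMUSG00000003849, chr8:107388225-107403206), NAD(P)H quinone dehydrogenase, is among the most used reporters of Nrf2 activity. It was at 12.6, 12.9 and 44.7 CPM in Nsd2 f/f and at 18.6, 91.3 and 21.6 CPM in Nsd2 Vil-KO libraries. The 2 libraries with Xist were highest, 1 in each genotype. In both strata, the libraries without Xist and the 2 with it, Nsd2 Vil-KO values were above Nsd2 f/f values, as for 10.8% of all genes. With all 6 libraries the log2 fold change was 0.91 (interval −0.90 to 2.72) and did not pass the call. Without Nsd2 Vil-KO replicate 2 it was −0.21. Per length, Nqo1 relative to Nfe2l2 was 0.161, 0.139 and 0.335 in Nsd2 f/f and 0.194, 0.703 and 0.256 in Nsd2 Vil-KO libraries. The ratio was highest in the 2 libraries with Xist, and in each stratum the Nsd2 Vil-KO values were above those of Nsd2 f/f.

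Hmox1 (ENSMUSG00000005413, chr8:75093621-75100589), haem oxygenase, opens the haem ring and is abundant in macrophages as well as stressed epithelium. It was at 31.4, 11.2 and 6.62 CPM in Nsd2 f/f and at 12.0, 29.2 and 6.54 CPM in Nsd2 Vil-KO libraries, with 1 high library in each genotype. The groups overlapped throughout, and the log2 fold change was −0.05 (interval −1.74 to 1.64). Leaving out Nsd2 f/f replicate 1 gave 0.84 and leaving out Nsd2 Vil-KO replicate 2 gave −0.83. Leaving out Nsd2 Vil-KO replicate 1 or 3, which were lower, gave 0.12 and 0.33, so its sign depended on the libraries included.

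**Figure D3:**
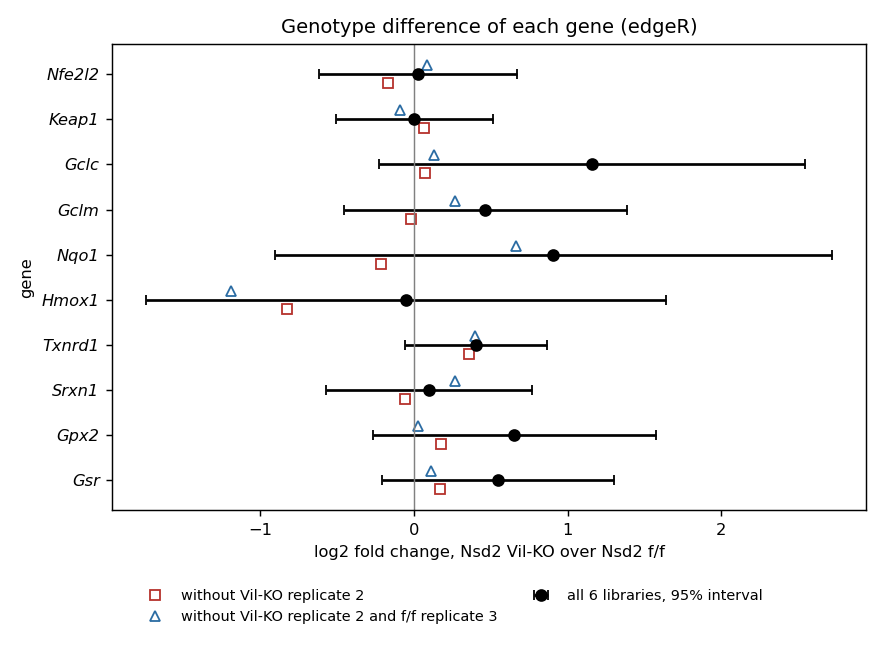
Black points give the log2 fold change of each gene, Nsd2 Vil-KO over Nsd2 f/f, with its 95% interval from edgeR on all 6 libraries. Red squares show the value without Nsd2 Vil-KO replicate 2 and blue triangles the value without that library and Nsd2 f/f replicate 3. Every interval crosses 0, Gclc moves from 1.16 to 0.08 without Nsd2 Vil-KO replicate 2, and Txnrd1 stays near 0.4 in all 3 fits.

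Since Xist was present in 1 library of each genotype, the genotypes were also compared within libraries with and without it, a split chosen after the values were seen. It coincides with the libraries that stood apart, so Xist and whatever else sets those libraries off cannot be told apart. Gclc, Gclm, Nqo1 and Txnrd1, 4 of the 10 genes, were higher in Nsd2 Vil-KO in both strata without overlap, as were 10.8% of all genes, and none of the 10 was lower in both, as were 11.8% of all genes. In the 4 libraries without Xist, 5 of the 10 genes were higher without overlap, against 21.4% of all genes, and none was lower, against 22.6%. The ratio of means was 1.57 for Nqo1, 1.31 for Txnrd1 and 1.09 for Gclc, with Gclm and Srxn1 in between. Between the libraries with Xist, 8 of the 10 genes were higher in Nsd2 Vil-KO, against 50.6% of all genes, with ratios of 4.41 for Hmox1, 4.32 for Gclc, 3.19 for Gpx2, 2.36 for Gsr, 2.04 for Nqo1 and 1.36 for Txnrd1. That second stratum has 1 library on each side and no replicate check.

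The same split entered the fitted model as a covariate for the presence of Xist. Nqo1 then had a log2 fold change of 0.78 (unadjusted p = 0.00183), Gclm of 0.40 (unadjusted p = 0.0476) and Txnrd1 of 0.40 (unadjusted p = 0.0280), and these 3 of 10 genes passed the call, against 7.39% of all genes. On the 4 libraries without Xist, Nqo1 (0.66, unadjusted p = 0.00415), Txnrd1 (0.40, unadjusted p = 0.0213) and Srxn1 (0.27, unadjusted p = 0.0495) passed, against 10.9% of all genes. The smallest adjusted p over all genes was 0.298 with the covariate and 0.0694 on the 4 libraries, both from edgeR, so none of these calls survived adjustment.

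**Figure D4:**
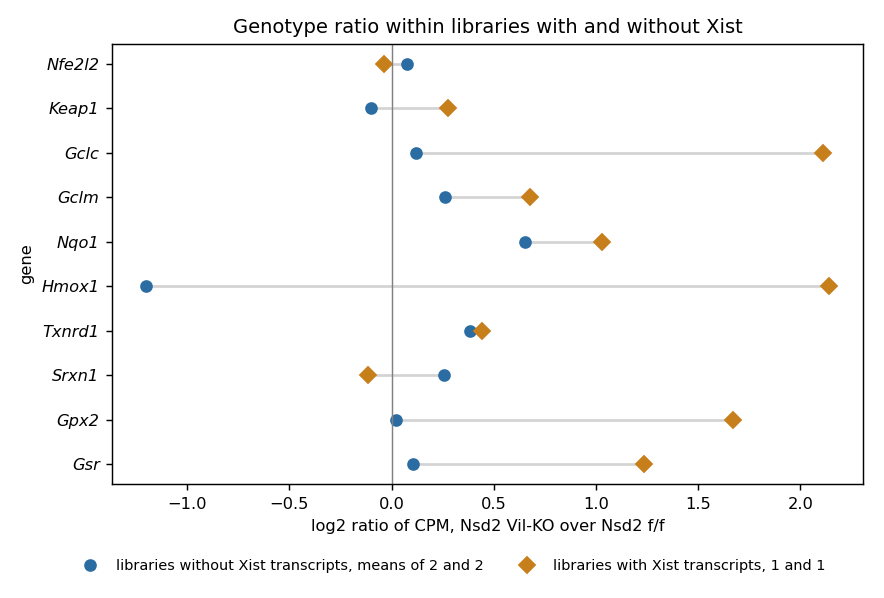
Points give the log2 ratio of CPM, Nsd2 Vil-KO over Nsd2 f/f, for each gene within the 4 libraries without Xist (blue circles, ratio of means of 2 and 2) and within the 2 libraries with Xist (orange diamonds, 1 against 1). Txnrd1 lies at the same place in both (ratios 1.31 and 1.36), Gclc and Gpx2 are near 0 in the first and far above it in the second, and Hmox1 is below 0 in the first and above it in the second.

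Other genes of the pathway were taken from a list of 56, of which 54 were tested. In this list 2 genes (3.70%) passed the call, both higher in Nsd2 Vil-KO, against 2.96% of all genes in either direction and 1.51% higher, so the share was near that of all genes. Both encode export pumps that carry glutathione or its conjugates. Abcc1 was at 42.3, 42.4 and 39.6 CPM in Nsd2 f/f and at 54.7, 57.5 and 55.7 CPM in Nsd2 Vil-KO libraries. Its groups were tight and separated, and it rose by 0.43 on the log2 scale (standard error 0.15, unadjusted p = 0.0200 from edgeR). Abcc4 was at 19.3, 24.6 and 16.2 CPM in Nsd2 f/f and at 28.6, 45.7 and 28.5 CPM in Nsd2 Vil-KO libraries, and it rose by 0.77 (standard error 0.27, unadjusted p = 0.0252). Neither passed after adjustment over all genes (adjusted p = 0.999 from edgeR). Abcc1 stayed between 0.39 and 0.48 in the 16 alternative settings but lost its call without Nsd2 f/f replicate 1 or 2 or Nsd2 Vil-KO replicate 3, and Abcc4, between 0.39 and 0.95, without Nsd2 f/f replicate 1 or 3 or Nsd2 Vil-KO replicate 2. Another pump, Abcc2, and Chac1, which degrades glutathione, did not overlap between genotypes either, but stayed below 1 and 5 CPM in every library. The 4 genes of 54 without overlap, all higher in Nsd2 Vil-KO, compare with 5.21% higher and 4.70% lower among all genes.

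By role, the list had 34 genes above and 20 below 0, with a median log2 fold change of 0.09. Genes for glutathione supply, use and transport had 9 of 13 above 0 (median 0.28), those for NADPH supply 5 of 6 (0.20), those for haem and iron 5 of 6 (0.22) and the regulators 7 of 9 (0.09). Thioredoxins and peroxiredoxins had 4 of 10 above 0 (median −0.16), quinone, carbonyl and epoxide metabolism 2 of 5 (−0.22), and superoxide and peroxide removal 1 of 4 (−0.41). The remaining gene, Osgin1, was at 0.10. Outside the pumps no gene of any role passed the call.

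Beside the pumps, the genes of the list that differed most and averaged 10 CPM or more each had 1 of the libraries that stood apart as their highest. Akr1b8, an aldo-keto reductase, was at 266 CPM in Nsd2 Vil-KO replicate 2 and between 31.3 and 69.8 CPM elsewhere. The carbonyl reductase Cbr3 was at 138 CPM in the same library, followed by 72.3 CPM in Nsd2 f/f replicate 3 and 12.3 to 31.5 CPM in the rest. Slc7a11, the cystine importer that feeds glutathione synthesis, was at 38.9 CPM in Nsd2 Vil-KO replicate 2 and at 3.64 to 14.6 CPM in the others. A single library of the opposite genotype set the values of Ugdh and Prdx6: Ugdh, an enzyme of glucuronic acid supply, was at 587 CPM in Nsd2 f/f replicate 3 and at 68.2 to 103 CPM elsewhere, and the peroxiredoxin Prdx6 was at 6751 CPM there against 1350 to 2407 CPM. The haem transporter Slc48a1 reached 77.2 CPM in Nsd2 Vil-KO replicate 2, with 21.6 to 34.6 CPM in the remaining libraries. Of the 54 genes, 31 (57.4%) were highest in Nsd2 Vil-KO replicate 2 and 13 (24.1%) in Nsd2 f/f replicate 3, and without the former library the median of the list was −0.18.

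**Figure D5:**
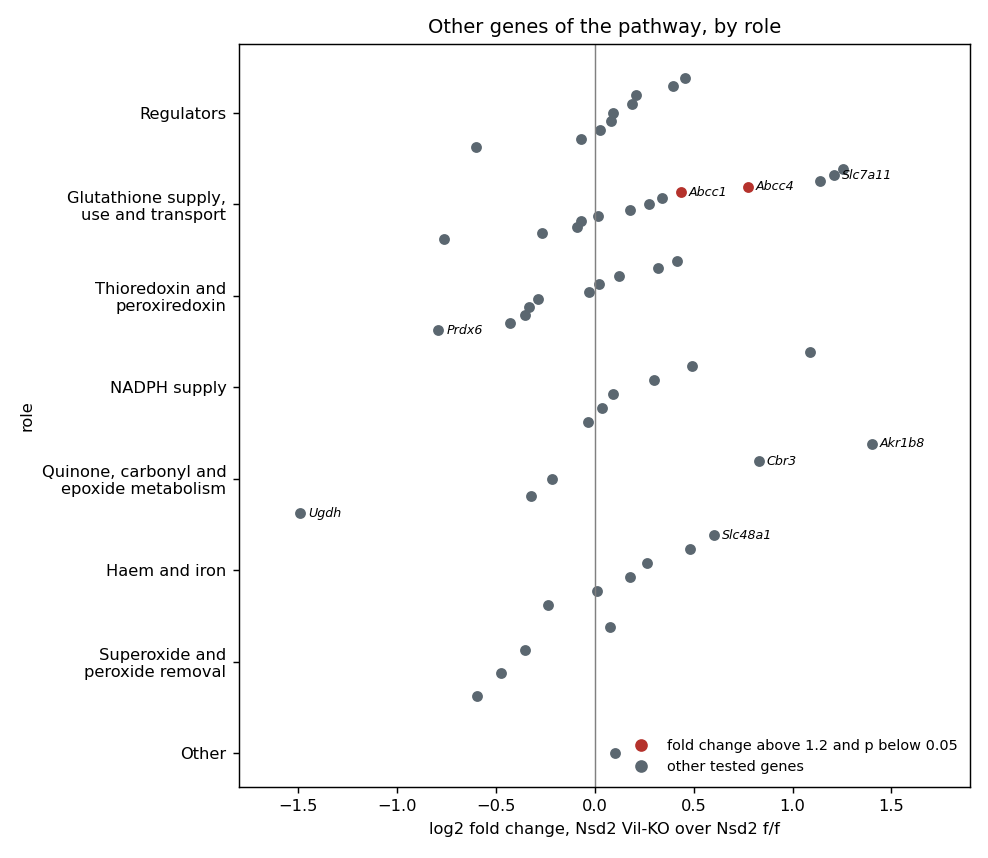
Each point is 1 of the 54 tested genes of the wider list, placed by its log2 fold change, Nsd2 Vil-KO over Nsd2 f/f, and grouped by role, with the genes chosen for description named. The 2 red points, Abcc1 and Abcc4, passed the call, and the grey points on either side reach from −1.49 (Ugdh) to 1.40 (Akr1b8).

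Marker genes of the cells that such a preparation can hold were read in each library. The 9 epithelial markers were all present and summed to between 9407 and 15276 CPM. The 6 crypt and cycling markers summed to 602, 592 and 154 CPM in Nsd2 f/f and to 579, 178 and 779 CPM in Nsd2 Vil-KO libraries, lowest in the 2 libraries that stood apart. The 7 neutrophil markers summed to 2355 CPM in Nsd2 Vil-KO replicate 2, with Ly6g at 1355, S100a8 at 574 and S100a9 at 405 CPM but Csf3r at 0.666 CPM, and to 198 to 897 CPM in the others. Ly6g was at 163 to 237 CPM in every other library, whatever the level of the remaining markers. Csf3r (31.0 CPM), Cxcr2 (12.5), Retnlg (48.7) and Mmp8 (12.7) were instead highest in Nsd2 f/f replicate 1, while Nsd2 Vil-KO replicate 2 had 5.10 CPM of Cxcr2 and 13.0 of Retnlg, and the median log2 fold change of the list was −0.88.

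The 8 macrophage and monocyte markers summed to 341, 186 and 105 CPM in Nsd2 f/f and to 205, 169 and 267 CPM in Nsd2 Vil-KO libraries. Cd14 made up most of each sum, at 234, 135 and 99.1 and at 165, 155 and 245 CPM, with a log2 fold change of 0.27, whereas the other 7 markers had log2 fold changes between −1.43 (C1qa) and −0.32 (Cd68), none of them called. Nsd2 f/f replicate 1, 1 of the 2 libraries with high Hmox1, had the highest sum, with C1qa at 25.2 CPM, whereas Nsd2 Vil-KO replicate 2, the other, had C1qa at 1.61 CPM and Adgre1 below the floor, as Nsd2 f/f replicate 3 did. Surface colonocyte markers summed to 7041 CPM in Nsd2 f/f replicate 3 and to 2395 to 3399.5 CPM in the other libraries. Fibroblast markers summed to 263, 57.1 and 5.82 CPM in Nsd2 f/f and to 69.9, 5.05 and 15.5 CPM in Nsd2 Vil-KO libraries, again low in the 2 that stood apart. Sums of the markers of T cells (5.99 to 13.2 CPM), B and plasma cells (5.77 to 47.9), smooth muscle (1.21 to 10.9), endothelium (0.610 to 3.32) and erythroid cells (1.30 to 21.5) were low throughout. No marker list held a gene that passed the call, and the part of these cells in the values of the 10 genes was not tested.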

How the data were processed

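Read counts per gene were deposited by the authors for 6 libraries as whole numbers, with no normalisation or filter. Per the labels, libraries were made from total RNA of colon IECs, and the submitters' processing notes name HISAT2 and mm10. How reads were counted, and whether by strand, is not given in the sources used here, and the labels and the methods of the study name different library kits. Genes were joined by Ensembl ID to GENCODE vM21 (99.5% found), the source of positions and lengths.

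Counts were filtered with filterByExpr, scaled by TMM and tested with edgeR 4.0.16 (quasi-likelihood, R 4.3.3, no covariate). The call, a fold change above 1.2 with an unadjusted p below 0.05, follows the screening criterion in the study's results. The study's methods name an adjusted p below 0.05 instead, and its own test was a different one (Ballgown). P-values were adjusted by Benjamini-Hochberg over all 14650 genes. CPM used TMM-scaled library sizes. DESeq2 1.42.0 and limma 3.58.1 (voom with quality weights) were alternatives, and the procedure was tested on simulated data. Biological variation was high (coefficient of variation 41.2%). With 3 libraries a group, precision is set by the spread between libraries rather than by counting. Replicate numbers were not used as pairs in the main fit. Deviations from group means correlated by 0.32, −0.35 and −0.11 across genes for numbers 1, 2 and 3. They correlated by 0.30 for Nsd2 f/f replicate 3 with Nsd2 Vil-KO replicate 2, the libraries that stood apart. Such correlations cannot show whether samples were paired, because deviations within a group of 3 are not independent.

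The 10 genes, the wider list and the marker lists were chosen with earlier results of these data known. From the wider list, genes past the call were named, and then those with the largest absolute change at a mean of at least 10 CPM, up to 8. Abcc2, Chac1 and Osgin1 were named after their values were seen. Likeness was the root mean square difference of log2 CPM, each gene centred on its mean, taken over 9236 genes whose mean reached 10 CPM. The promoters of all genes in the RefSeq table served as the background of the motif shares. The alternatives were other scalings, filters, tests, a replicate block, each library or both outlying libraries left out, Xist as a covariate, mitochondrial genes left out, and adjusted p as the call.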

Additional observations from a re-analysis of the deposited data

How the results depend on the processing

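Over 16 alternative settings and the adjusted p as the call, the number of the 10 genes called was 0 except in 6. It was 2 with DESeq2 (4.32% of all genes called) and 1 with limma-voom and quality weights (9.70%). It was 3 without both libraries that stood apart (10.9%) and 3 with Xist as a covariate (7.39%). It was 2 without Nsd2 Vil-KO replicate 1 (Gclc and Gsr, 3.08% of all genes) and 1 without Nsd2 Vil-KO replicate 3 (Gclc, 1.49, 2.84% of all genes). The share of all genes was 2.96% in the main fit. Leaving out single libraries gave 0 to 2. Gclc, Txnrd1, Gpx2 and Gsr kept a positive log2 fold change in all 16, Gclc between 0.08 and 1.51 and Gpx2 between 0.03 and 0.90. The median of the 10 genes ran from 0.02 without Nsd2 Vil-KO replicate 2 to 0.56, and was 0.12 without both libraries. The cause of these shifts was not tested.

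Signs turned for genes near 0 and for genes carried by 1 library. Without Nsd2 Vil-KO replicate 2 the log2 fold changes were −0.17 (Nfe2l2), −0.022 (Gclm), −0.21 (Nqo1) and −0.055 (Srxn1). Hmox1, already below 0 in the main fit, kept its sign there at −0.83. Without Nsd2 f/f replicate 1 the log2 fold changes were −0.13 (Nfe2l2), −0.048 (Srxn1) and 0.84 (Hmox1). Without Nsd2 f/f replicate 2 they were −0.030 (Nfe2l2) and −0.025 (Srxn1). Hmox1 was at 0.12 and 0.33 without Nsd2 Vil-KO replicates 1 and 3. Keap1 was at −0.00065 with at least 10 counts required, −0.081 with limma-voom, −0.16 and −0.091 without Nsd2 f/f replicate 3 or Nsd2 Vil-KO replicate 3, and −0.090 without both libraries. The highest values with a library left out were 0.28 (Nfe2l2), 0.75 (Gclm), 1.78 (Nqo1) and 0.41 (Srxn1), all without Nsd2 f/f replicate 3, and 0.18 (Keap1) without Nsd2 f/f replicate 2.

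Among the other genes described, Abcc1 also lost its call with library size only, no filter or the replicate block, and Nsd2 (−0.87 to −1.42) with library size only. With single libraries left out, Ugdh ran from −1.94 to 0.13 and Prdx6 from −1.12 to 0.14 (the upper ends without Nsd2 f/f replicate 3), and Akr1b8 from −0.071 to 1.89, Cbr3 from −0.56 to 1.94 and Slc48a1 from −0.11 to 0.88 (the lower ends without Nsd2 Vil-KO replicate 2). Slc7a11 was at −0.012 with limma-voom, and without both libraries Slc7a11 was at −0.25 and Ugdh at 0.21.

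The count over all genes was 684 with no filter, 1421 with limma-voom, 1636 without both libraries, 1082 with Xist as a covariate and 0 with the adjusted p. It ran from 266 (without Nsd2 f/f replicate 2) to 719 (without Nsd2 Vil-KO replicate 2) when single libraries were left out. For the wider list the count was 1 with library size only (2.31% of all genes called) or no filter (2.59%), and 4 with DESeq2 (4.32%). It was 6 with limma-voom (9.70%) or without both libraries (10.9%), and 7 with Xist as a covariate (7.39%). The share of all genes thus rose in the same settings. The wider list count was 0 with the adjusted p, and 1 to 4 with single libraries left out. It was 1 without Nsd2 f/f replicate 1 (2.77% of all genes) or Nsd2 Vil-KO replicate 2 (4.75%), and 4 without Nsd2 Vil-KO replicate 1 (3.08%). Its median was −0.022 with limma-voom, −0.0089 without both libraries, and from −0.18 to 0.22 with single libraries left out. With the replicate number as a block the count over all genes was 267 (1.82%), that of the wider list 2 and that of the 10 genes 0. The genes higher in Nsd2 Vil-KO without overlap were 4 of 10 within the Xist strata, where 10.8% of all genes were. Over all 6 libraries they were 1 of 10, where 5.21% of all genes were. The stratum with Xist has 1 library on each side, so overlap cannot occur in it. The spread between libraries limited the comparison, and of the genes described Abcc2 lay near the floor of 3 counts.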

Other observations

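Among 9236 genes, those whose pattern over the 6 libraries was most like that of Gclc were Herpud1, Ankrd9, Slc19a1, Lrrc8e and Tc2n, with a root mean square difference of 0.142 to 0.165 on the log2 scale. Each was high in Nsd2 Vil-KO replicate 2, at 555, 108, 49.4, 50.0 and 202 CPM. Herpud1 was at 138 to 169 CPM in the other 5 libraries, and Slc19a1 at 11.7 to 15.3 CPM. None of the 5 passed the call.

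The genes most like Nqo1 were Akr1b8, Acaa2, Rab4a, Pir and Cbr3, at a larger difference of 0.289 to 0.373. All 5 were highest in Nsd2 Vil-KO replicate 2 and second in Nsd2 f/f replicate 3, the libraries with Xist. Acaa2 was at 188 and 113 CPM in that pair and at 38.4 to 50.9 CPM in the other 4, and Pir at 27.9 and 9.69 CPM against 5.61 to 8.22 CPM. None of the 5 passed the call. Such likeness over 6 libraries rests on 2 of them and was not tested.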
